A study of Mus musculus with 9 samples.

Results

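The genes described here encode subunits of the phagocyte NADPH oxidase: Cybb, Cyba, Ncf1, Ncf4 and Rac2. They were chosen by name, as phagocyte oxidase genes whose symbol stands alone on a probe set. All 5 had exactly 1 such probe set, and they are 5 of 19752 genes measured. RNA came from peritoneal macrophages of male C57BL/6 mice, 6 weeks of age, and was hybridised to 9 Affymetrix expression arrays. The IFNa group (n = 4) received 10000 U of recombinant interferon alpha and the IFNg group (n = 2) received 8000 U of recombinant interferon gamma, both by subcutaneous injection 2 h before the cells were taken. The remaining mice (n = 3, titled SPF) had no treatment, and no group was given vehicle alone, so interferon and injection cannot be told apart. Cells were sorted on F4/80 and ICAM2 according to the labels of the injected mice and on F4/80 according to those of the untreated mice. In the comparisons with untreated, interferon and this difference in the sort labels therefore cannot be told apart either. The description of IFNa replicate 1 reads IFN without a subtype, and its treatment label IFNa was used. The labels do not say whether each array is a separate animal, and p-values measure the spread between these arrays, which may be partly technical.

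The phagocyte oxidase moves electrons from NADPH across the phagosome or plasma membrane to oxygen and so makes superoxide, from which hydrogen peroxide and other oxidants used against microbes arise. Its membrane part is a pair of proteins, the catalytic gp91phox (Cybb) and its partner p22phox (Cyba). Cytosolic subunits, among them p47phox (Ncf1) and p40phox (Ncf4), join that pair on activation, together with a Rac GTPase. Loss of the oxidase causes chronic granulomatous disease, and interferon gamma is known for raising oxidase activity in macrophages over longer exposures.

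In the RefSeq promoter table (mouse build GRCm38.p6, 250 bases before to 50 after a gene's start), windows were found for Cybb, Cyba and Ncf1. The Cyba and Ncf1 windows lie across the start of the annotated gene, which is its high-coordinate edge on the minus strand. The Cybb window instead lies inside the annotated gene span and so marks a start within it. Each was searched on both strands for the gamma-activated site TTCNNNGAA, for the core of the interferon-stimulated response element (GAAA, any 2 bases, GAAA), which binds IRF factors, and for the core GAGGAA of the myeloid factor PU.1. The windows of Cybb (chrX:9469275-9469574, minus strand) and Ncf1 (chr5:134229576-134229875, minus strand) are shown because they hold matches to motifs of interferon-activated factors. They are written 5′ to 3′ along the gene, with matched bases in capitals.
Cybb: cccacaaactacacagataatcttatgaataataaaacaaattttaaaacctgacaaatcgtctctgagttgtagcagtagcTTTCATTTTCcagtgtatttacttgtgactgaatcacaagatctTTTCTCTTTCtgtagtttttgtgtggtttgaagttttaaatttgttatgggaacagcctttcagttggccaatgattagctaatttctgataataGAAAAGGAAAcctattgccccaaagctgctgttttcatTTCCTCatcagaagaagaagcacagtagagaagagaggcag
Ncf1: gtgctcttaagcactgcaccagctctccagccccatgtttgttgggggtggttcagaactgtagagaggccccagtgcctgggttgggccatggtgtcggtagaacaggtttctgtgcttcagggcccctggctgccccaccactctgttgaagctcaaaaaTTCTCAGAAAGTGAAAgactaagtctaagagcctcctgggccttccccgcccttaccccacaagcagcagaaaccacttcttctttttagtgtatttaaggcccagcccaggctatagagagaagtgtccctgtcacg

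With the first transcribed base counted as 0, the Cybb window held the response element core at -29 to -20 on the gene's strand and at -124 to -115 and -168 to -159 on the other strand. It also held the PU.1 core at 9 to 14 on the other strand. The Ncf1 window held a gamma-activated site at -88 to -80 that overlapped a response element core at -82 to -73. The Cyba window held none of the 3 motifs. Of 32851 promoter windows in the table, 3.44% held the response element core, 8.30% the gamma-activated site and 28.3% the PU.1 core. A match is a description of letters, not evidence of binding in these cells.

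No oxidase gene passed the test for a change at 2 h after either interferon. In each of the 3 comparisons 0 of 5 passed an adjusted p under 0.05 (limma, Benjamini-Hochberg over all genes), against 2.65% of all genes for IFNa against untreated, 1.35% for IFNg against untreated and 0.977% for IFNa against IFNg. At an unadjusted p under 0.05 the counts were also 0 of 5 in each comparison. The 95% intervals of all 15 differences lay within 2-fold either way, as did those of 91.5% of all genes for IFNa against untreated, 85.6% for IFNg against untreated and 88.3% for IFNa against IFNg. Changes inside these intervals are not shown to be absent. In whole-population RNA a change in RNA per cell and a change in the mix of cells cannot be told apart.

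**Figure D1:**
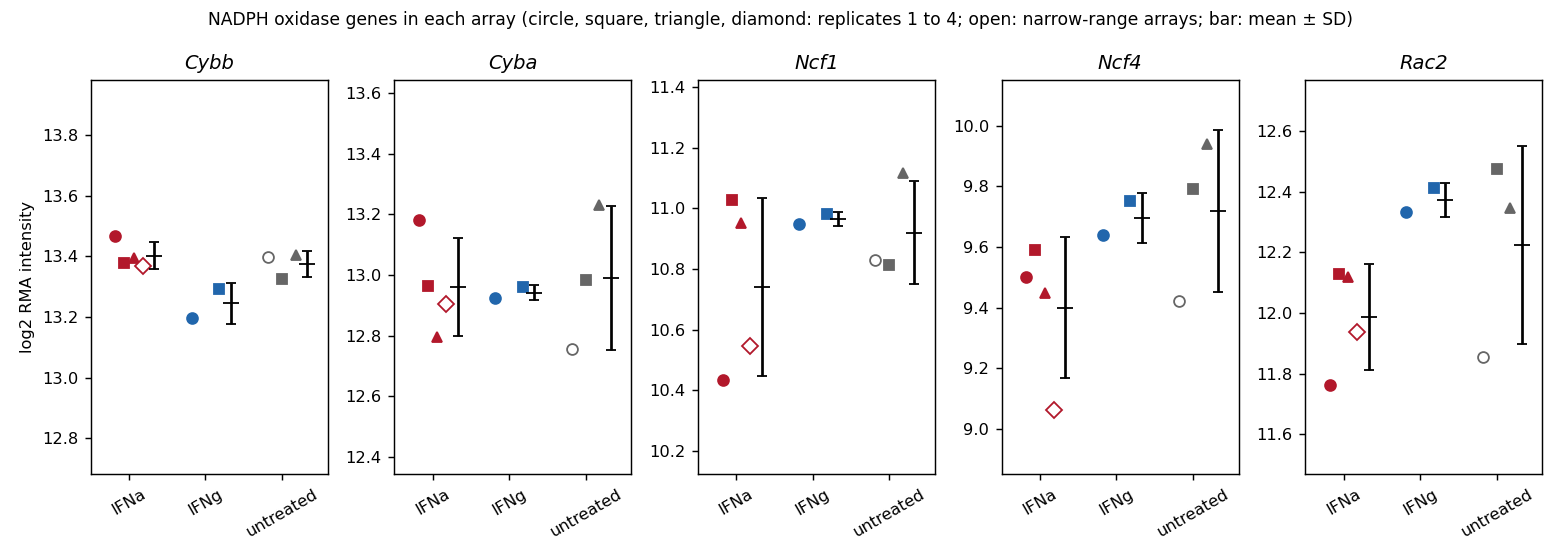
Log2 RMA intensity (vertical axis, the same span of 1.3 log2 units in each panel) of the 5 genes in every IFNa, IFNg and untreated array, with the group mean ± SD beside the points. Cybb varied least, and open symbols mark IFNa replicate 4 and untreated replicate 1, the arrays with the narrowest intensity range.

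Cybb, the catalytic subunit that carries the electrons, was bright and even across all arrays. Its intensity was 11318, 10641, 10778 and 10569 in IFNa replicates 1 to 4, 9393 and 10036 in the IFNg replicates, and 10793, 10270 and 10831 in untreated replicates 1 to 3. The IFNa and untreated arrays overlapped, whereas both IFNg arrays lay below every other array. Cybb differed from untreated by log2 0.03 ± 0.10 (standard error) after IFNa, a ratio of 1.02 with a 95% interval of 0.877 to 1.18 (adjusted p = 0.974). After IFNg it differed by -0.13 ± 0.12, a ratio of 0.914 with an interval of 0.764 to 1.09 (adjusted p = 0.776). The gap between IFNa and IFNg arrays was 0.16 ± 0.11 (adjusted p = 0.802), also not past the test.

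The spread of Cybb within groups, a pooled SD of 0.05 on the log2 scale, was undercut by 0.75% of genes, and the median SD was 0.21 over all genes and 0.26 over the brightest 10%. The highest of the 9 arrays exceeded the lowest by 1.20-fold. The brightest gene of each array read 16599 to 19209, so Cybb lay in the upper part of the scale.

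Cyba, the membrane partner that steadies gp91phox and docks the organiser p47phox, varied more. It read 9287, 7983, 7106 and 7668 in IFNa replicates 1 to 4, 7773 and 7967 in the IFNg replicates, and 6922, 8093 and 9616 in untreated replicates 1 to 3. The untreated arrays held both the lowest and the highest value, and both interferon groups lay inside it. Its differences from untreated were log2 -0.03 ± 0.14 after IFNa (ratio 0.980, 95% interval 0.786 to 1.22) and -0.05 ± 0.17 after IFNg (0.967, 0.743 to 1.26), with adjusted p = 0.981 and 0.931. IFNa and IFNg arrays differed by 0.02 ± 0.16 (adjusted p = 0.967).

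Ncf1, the organiser that is phosphorylated on activation and brings the cytosolic complex to the membrane, was uneven among the IFNa arrays. It read 1383, 2086, 1982 and 1496 in IFNa replicates 1 to 4, 1976 and 2023 in the IFNg replicates, and 1820, 1801 and 2218 in untreated replicates 1 to 3. IFNa replicates 1 and 4 were the lowest of all 9 arrays, and IFNa replicates 2 and 3 lay among the untreated ones. The group differences were log2 -0.18 ± 0.17 for IFNa against untreated (ratio 0.883, 95% interval 0.682 to 1.14, adjusted p = 0.843) and 0.05 ± 0.20 for IFNg against untreated (1.03, 0.758 to 1.40, adjusted p = 0.947). IFNa against IFNg gave -0.23 ± 0.19 (adjusted p = 0.802). With 1 array left out the value for IFNa against untreated ranged from -0.28 (without IFNa replicate 2) to -0.08 (without IFNa replicate 1). For a gene with this spread, the IFNg interval still allowed a rise of 1.40-fold.

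Ncf4, which binds phosphatidylinositol 3-phosphate on phagosomes and supports the oxidase there, had the largest difference from untreated of the 5 genes after IFNa. It read 724, 770, 698 and 534 in IFNa replicates 1 to 4, 797 and 863 in the IFNg replicates, and 686, 886 and 983 in untreated replicates 1 to 3. All but untreated replicate 1 among the untreated arrays lay above every IFNa array, and both IFNg arrays did too. The difference was log2 -0.32 ± 0.17 for IFNa against untreated (ratio 0.802, 95% interval 0.620 to 1.04), with an adjusted p of 0.540 and an unadjusted p of 0.0838. IFNg against untreated gave -0.02 ± 0.20 (0.984, 0.724 to 1.34, adjusted p = 0.975), and IFNa against IFNg gave -0.30 ± 0.19 (adjusted p = 0.802).

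The call of Ncf4 after IFNa turned on the setting. It passed after quantile normalization (log2 -0.36 ± 0.08, adjusted p = 0.0425), with each array's interquartile range as a covariate (-0.31 ± 0.08, adjusted p = 0.0484) and with array weights (-0.27 ± 0.06, adjusted p = 2.36e-03), whose estimation did not converge. It did not pass when both arrays of narrow range were left out (-0.35 ± 0.10, adjusted p = 0.0798), nor when any single array was left out (-0.47 to -0.21, adjusted p = 0.208 to 0.958). Its sign was the same in all of these.

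Rac2, the Rac GTPase that is largely confined to blood cells, differed most between the interferons. It read 3474, 4479, 4448 and 3921 in IFNa replicates 1 to 4, 5163 and 5453 in the IFNg replicates, and 3705, 5694 and 5201 in untreated replicates 1 to 3. Every IFNa array lay below both IFNg arrays and below untreated replicates 2 and 3, while untreated replicate 1 lay among the IFNa arrays. IFNa against IFNg gave log2 -0.39 ± 0.19 (ratio 0.765, 95% interval 0.572 to 1.02), with an adjusted p of 0.775 and an unadjusted p of 0.0662. The differences from untreated were -0.24 ± 0.16 after IFNa (0.848, 0.657 to 1.09, adjusted p = 0.728) and 0.15 ± 0.20 after IFNg (1.11, 0.817 to 1.504, adjusted p = 0.827). Without untreated replicate 1 the value for IFNg turned to -0.04 (adjusted p = 1). For IFNa, leaving out untreated replicate 1 gave -0.42 and leaving out untreated replicate 2 gave -0.11. Leaving out both arrays of narrow range gave -0.41 (adjusted p = 0.129). It passed only with array weights (-0.41, adjusted p = 6.36e-04).

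Rac1, the widely expressed relative of Rac2 that can also activate the oxidase, was level across the groups. It averaged 5317 in IFNa arrays (5195 to 5543), 5431 in IFNg arrays (5319 and 5542) and 5115 in untreated arrays (4363 to 5562). Its differences from untreated were log2 0.06 ± 0.12 after IFNa (adjusted p = 0.940) and 0.09 after IFNg (adjusted p = 0.839).

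**Figure D2:**
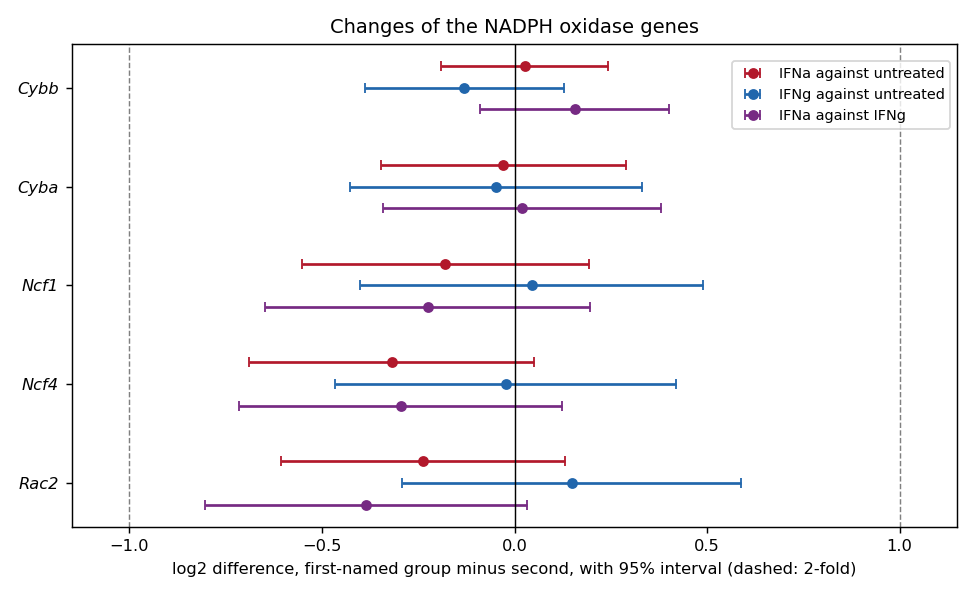
Log2 difference of each oxidase gene in the 3 comparisons (first-named group minus second) with its 95% interval from the limma model, dashed lines marking 2-fold either way. Every interval includes 0 and lies inside the dashed lines, and the lowest bound is that of Rac2 for IFNa against IFNg.

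The order of group means was not shared by the 5 genes. It was IFNa, untreated and IFNg from high to low for Cybb, and untreated, IFNa and IFNg for Cyba. It was IFNg, untreated and IFNa for Ncf1 and Rac2, and untreated, IFNg and IFNa for Ncf4. No neighbours in any of these orders differed past the test. Groups did not overlap for 0 of 5 genes in IFNa against untreated, 1 of 5 in IFNg against untreated (Cybb) and 3 of 5 in IFNa against IFNg (Cybb, Ncf4 and Rac2). Among all genes the groups did not overlap for 10.4% in IFNa against untreated, 27.8% in IFNg against untreated and 28.4% in IFNa against IFNg, so with groups this small such separation was common.

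Single arrays shaped part of this pattern. Untreated replicate 1 was the lowest untreated array for Cyba, Ncf4 and Rac2, and IFNa replicate 4 was the lowest of all arrays for Ncf4. These 2 arrays had interquartile ranges of log2 2.27 and 2.16, against 2.68 to 3.03 in the other 7. IFNa replicate 1 combined the highest Cybb of all arrays with the lowest Ncf1 and Rac2. The part of intensity range in these differences was not tested beyond the fits given here. Without both narrow arrays 0 of 5 genes passed in each comparison, and the medians over the 5 genes were log2 -0.16 for IFNa against untreated, -0.12 for IFNg against untreated and -0.16 for IFNa against IFNg, where all 9 arrays gave -0.18, -0.02 and -0.23. The median for IFNg against untreated was 0.02 under median centring of the arrays. After quantile normalization the medians were -0.30 for IFNa against untreated, -0.15 for IFNg against untreated and -0.12 for IFNa against IFNg. The medians over all genes with 9 arrays were -0.02, -0.06 and 0.03.

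**Figure D3:**
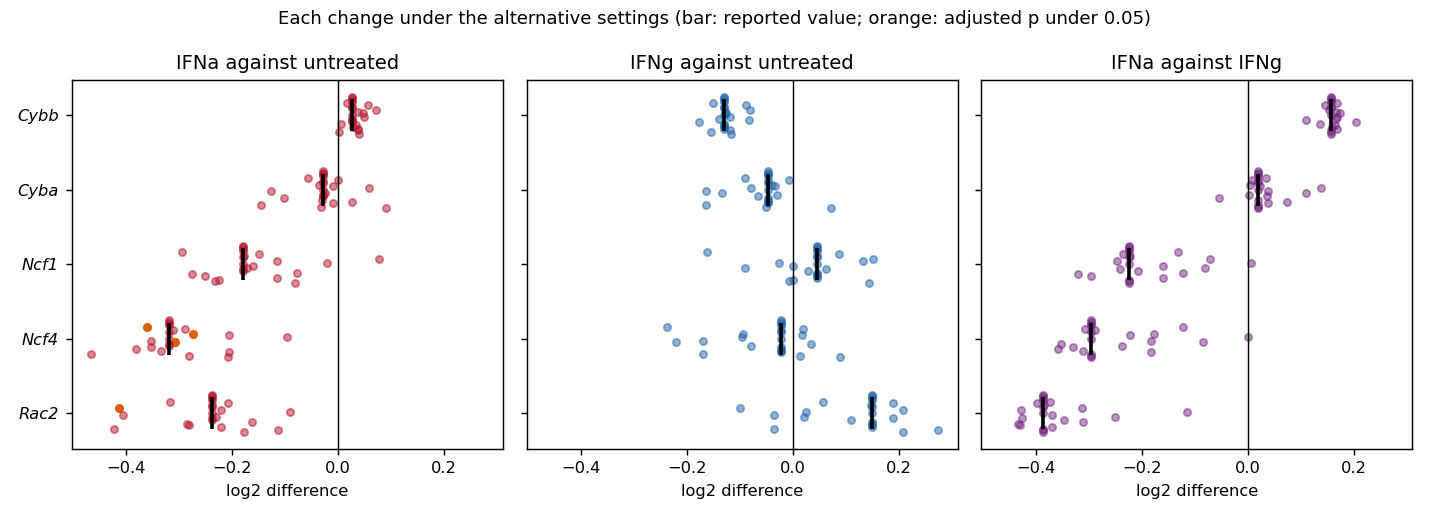
Each point is the log2 difference of an oxidase gene under 1 alternative setting or with 1 array left out, and the black bar is the value reported. Orange points, which passed an adjusted p under 0.05, occur for Ncf4 and Rac2 in IFNa against untreated and nowhere else.

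The same arrays did register the interferons. Of 7 interferon target genes measured as a check, 5 rose after IFNa and 7 after IFNg, with Ifit1 higher by log2 6.12 ± 0.25 after IFNa and Cxcl9 higher by 4.34 ± 0.20 after IFNg. Gbp5, a guanylate-binding protein, rose by 3.72 after IFNa and 4.21 after IFNg, and Ciita by 1.77 after IFNg. For Ifit1 and Irf7 the IFNg call was lost without any one of IFNg replicates 1 and 2, IFNa replicates 1 to 3 and untreated replicate 2 (highest adjusted p = 0.447 and 0.326). Large peritoneal macrophage markers were bright: none of 15 lay below the lowest array median of 162.2 on every array, and their summed intensity was 86322 to 95592 in IFNa, 88506 to 93122 in IFNg and 92187 to 96568 in untreated arrays. Gata6, the transcription factor of this macrophage, fell by 1.05 on the log2 scale after IFNa and by 1.16 after IFNg. Its call was lost without untreated replicate 2 (adjusted p = 0.0641 for IFNa), and for IFNg also without IFNg replicate 1, IFNg replicate 2 or untreated replicate 3 (up to 0.337). Mertk, an uptake receptor, rose by 0.62 after IFNa, a call lost without any one array but IFNa replicate 4 and untreated replicate 3 (up to 0.139). Neutrophils carry the same oxidase, and 11 of their 13 markers, S100a8, S100a9 and Ly6g among them, lay below 162.2 on every array. Their summed intensity was 2891 to 3146 in IFNa and 2961 to 3332 in IFNg arrays, below 3721 to 4264 in untreated arrays. Most of it came from Csf3r, which macrophages can also express (log2 -0.51 after IFNa, adjusted p = 0.0825), and its part in the oxidase values was not tested. Ly6g gave 0.49 after IFNa (adjusted p = 0.147). B cells use oxidase subunits too. Their 9 markers summed to 986 to 2886 in IFNa, 979 to 1055 in IFNg and 1188 to 1509 in untreated arrays. None passed, and the smallest p-values against untreated were those of Pax5 (-0.32) and Blk (-0.29) after IFNg. All 9 were lower than untreated after IFNg (log2 -0.9716 to -0.2567, median -0.3917). After IFNa they ran from -0.0532 to 0.5239 (median 0.1156). All 9 were higher in IFNa than in IFNg arrays (0.2721 to 1.4956, median 0.4781). The part of B cells in the oxidase values was not tested.

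The 13 markers of small peritoneal macrophages, monocytes and dendritic cells summed to 10545 to 13287 in IFNa, 11083 to 12855 in IFNg and 11533 to 13543 in untreated arrays. Of these, 1 passed: Plac8 rose by log2 1.00 after IFNa (adjusted p = 0.0156), with means of 231.2 in IFNa, 238.7 in IFNg and 116.4 in untreated arrays. That call was lost without IFNa replicate 2 or untreated replicate 2 (adjusted p = 0.0521 and 0.0851), and after IFNg Plac8 gave 1.03 (adjusted p = 0.0537). The class II genes H2-Eb1 and Cd74, named after their values were seen, gave -0.60 and -0.59 after IFNg (adjusted p = 0.574 and 0.603). They lay at the low end of the 13 markers, whose values after IFNg ran from -0.60 to 1.03 with a median of -0.18. No marker of mast cells and eosinophils, T and NK cells, mesothelium and stroma, or erythroid cells and platelets passed. The mast cell protease genes Cpa3 and Mcpt4 gave -1.10 and -0.40 after IFNg (adjusted p = 0.222 and 0.533). Il7r and Klrb1c gave -0.30 and -0.31, Krt19 -0.35 and Alas2 -0.48 after IFNg, and Dcn 0.62 and Ppbp 0.23 after IFNa. The part of these cells in the oxidase values was not tested.

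The genes around the oxidase were read from lists of known roles, of which Irf1 is on the interferon list too. Beside the counts that follow, 2.65% of all genes passed for IFNa against untreated and 1.35% for IFNg against untreated. For IFNa against IFNg the share was 0.977%. A single call in a list is not read as a trait of that list. Among the other NADPH oxidases and their partners 0 of 10 passed the test in any comparison. Of them, 8, such as Nox1, Nox4 and Duox2, lay below 162.2 on every array. The smallest p-values there were those of Duoxa1 (log2 -0.26 after IFNg, adjusted p = 0.703) and Duox2 (-0.22, adjusted p = 0.717), which belong to the oxidase of thyroid and epithelia. None of 12 measured genes for NADPH supply passed the test, and G6pdx of that list had no probe set of its own. Rpe (0.61 after IFNa, adjusted p = 0.447), an enzyme of the pentose phosphate pathway, and the malic enzyme gene Me2 (0.48, adjusted p = 0.498) had the smallest p-values.

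Of 22 genes of oxidase assembly and activation, 0 passed the test after IFNa and 1 passed after IFNg, as a rise. That gene was Pik3cd, a leukocyte phosphoinositide 3-kinase subunit, at 1265 in IFNg against 670 in untreated arrays (log2 0.92, adjusted p = 0.0123), and at 918 in IFNa arrays (0.45, adjusted p = 0.0978). It did not pass after quantile normalization, in a fit of only the groups compared, or without IFNg replicate 1, IFNg replicate 2 or untreated replicate 2 (adjusted p = 0.0678 to 0.223). Without both arrays of narrow range it passed (adjusted p = 5.44e-03). Cybc1, the chaperone that gp91phox and p22phox need to reach the membrane, was named for that role after its values were seen. It averaged 830 in IFNa, 1085 in IFNg and 709 in untreated arrays, and its differences from untreated were log2 0.24 (adjusted p = 0.686) and 0.63 (adjusted p = 0.254).

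Of 25 genes that remove oxidants, 0 passed the test after IFNa and 1 passed after IFNg, as a rise. Sod2, the mitochondrial superoxide dismutase, was higher by log2 1.27 after IFNg, a ratio of 2.41 (adjusted p = 0.0345), with 3915 and 4001 in the IFNg arrays against 1101 to 2184 in the untreated arrays. Its call was lost in 9 of 22 alternative fits, among them the fit limited to the groups compared, the one with median-centred arrays, and those without any one of IFNg replicates 1 and 2, IFNa replicates 1 to 3 and untreated replicate 2 (adjusted p = 0.0587 to 0.332). Its value was positive in every fit, and it passed without both arrays of narrow range (adjusted p = 3.05e-03). The superoxide dismutase of the cytosol, Sod1, was named beside it after its values were seen, at log2 -0.12 after IFNa and -0.09 after IFNg, neither past the test.

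Transcription factors known to act on oxidase genes did change. Of 12 measured, 1 rose and 1 fell after IFNa, and 2 rose after IFNg. Irf1, an interferon-induced activator, rose by log2 2.39 ± 0.21 after IFNa (adjusted p = 1.65e-04) and by 3.50 after IFNg (1.25e-04). Irf8, which acts with PU.1 on myeloid promoters including that of human CYBB, rose by 1.98 after IFNg, with 6541 and 6916 in IFNg arrays against 1310 to 2019 in untreated arrays (adjusted p = 5.32e-04). After IFNa it did not pass (-0.09, adjusted p = 0.930), and the direct difference between IFNa and IFNg was -2.08 (adjusted p = 5.06e-04). Irf1 and Irf8 passed in these comparisons in each of the alternative fits. Cebpa, a myeloid factor, fell by 0.93 on the log2 scale after IFNa (adjusted p = 0.04997). The call was lost in 13 of 22 alternative fits (up to 0.244). Among them were those without any one array but IFNa replicate 4 and untreated replicate 1. Cebpa passed without both of these arrays of narrow range (adjusted p = 1.20e-03). Spi1, which encodes PU.1 and was named after its values were seen, averaged 3910 in IFNa, 4607 in IFNg and 4504 in untreated arrays, and passed in neither comparison.

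Other effectors of the phagosome moved in part. Of 8 measured, Acod1, which makes itaconate, and Irgm1, a GTPase that acts on pathogen vacuoles, rose after each interferon. Acod1 rose by log2 1.18 after IFNa and 4.18 after IFNg, and Irgm1 by 3.71 and 3.92 (adjusted p = 2.41e-03 or less). Nos2, the inducible nitric oxide synthase and named after its values were seen, was dim in all groups, at a mean of 123.3 in IFNa, 106.8 in IFNg and 110.4 in untreated arrays, and passed in neither comparison.

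**Figure D4:**
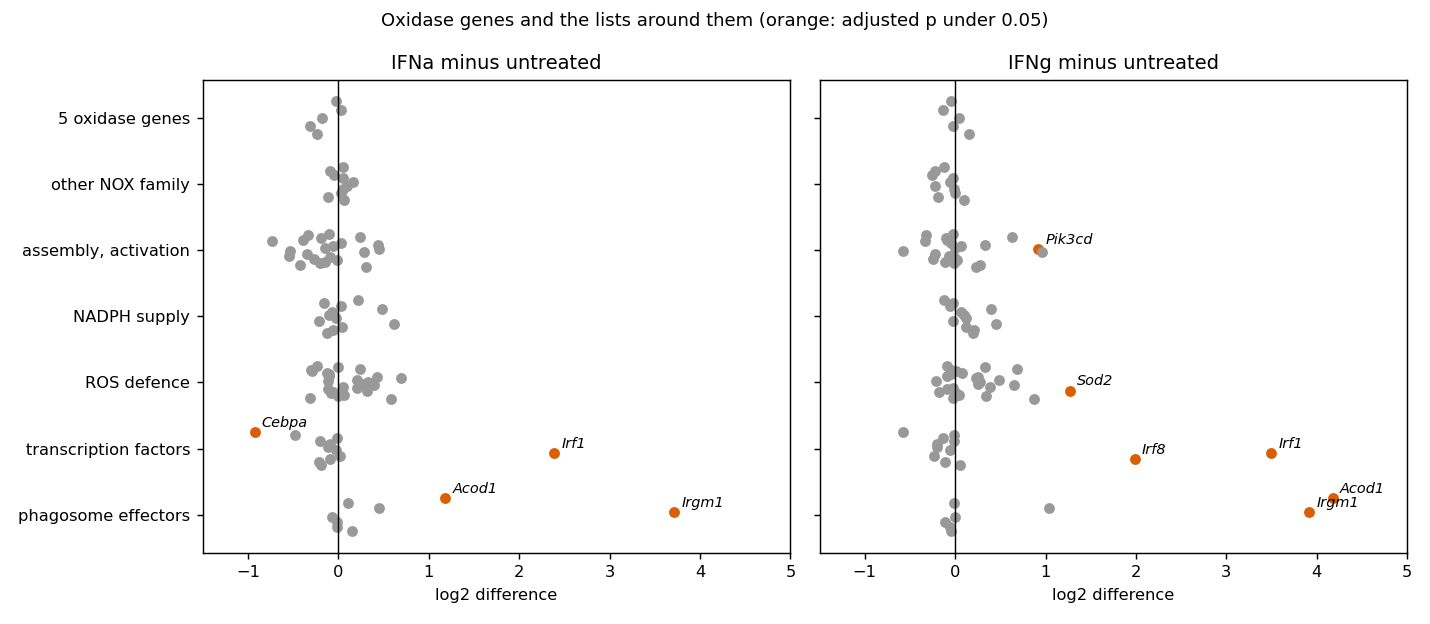
Log2 difference from untreated after IFNa (left) and IFNg (right) for each measured gene of the oxidase and the surrounding lists, with genes past an adjusted p under 0.05 in orange and named. The 5 oxidase genes lie between -0.32 and 0.15, while Irf1, Irf8, Acod1 and Irgm1 reach 1.98 to 4.18 after IFNg.

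Ncf4 and Rac2 share a position that the choice of genes did not use: both lie on chromosome 15 of the RefSeq annotation of GRCm38.p6, with 10 protein-coding genes between them. All 10 were measured, and 2 of them passed the test against untreated, both after IFNg. Csf2rb2 and Csf2rb, adjacent to Ncf4 and encoding beta chains of cytokine receptors (in the case of Csf2rb, of the GM-CSF receptor), rose by log2 1.58 ± 0.20 and 1.34 ± 0.16 (adjusted p = 3.56e-03 and 2.88e-03). After IFNa they differed from untreated by 0.03 and -0.01, and IFNa against IFNg gave -1.54 and -1.35 (adjusted p = 4.21e-03 and 2.81e-03). Without IFNg replicate 1 neither call held (adjusted p = 0.0717 to 0.0967). The 2 genes are near-identical in sequence, so their probe sets may share signal. Ncf4 and Rac2 themselves gave -0.02 and 0.15 after IFNg.

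**Figure D5:**
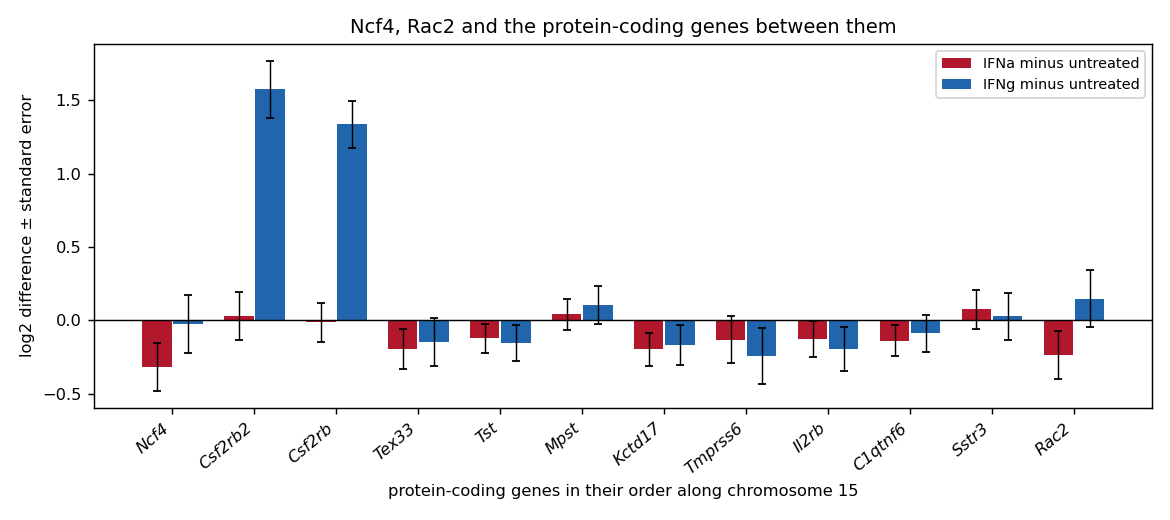
Log2 difference from untreated, with its standard error, for Ncf4, Rac2 and the 10 protein-coding genes between them in their order along the chromosome, for IFNa (red) and IFNg (blue). Csf2rb2 and Csf2rb rise after IFNg by 1.58 and 1.34, and the other 10 genes lie between -0.32 and 0.15.

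The genes whose levels ran most like those of the oxidase genes over the 9 arrays were found by Pearson correlation of log2 values, as a description with no test. For Cybb they were Gprc5b (r = 0.954), Mfsd7a (0.918) and Bahcc1 (0.916). For Cyba they were Map3k7 (0.925), Btbd7 (0.913) and Zbtb39 (0.901), and for Ncf1 they were Xxylt1 (0.973), Gas7 (0.967) and Letm1 (0.966). Ncf4 ran with Gpr137b-ps (0.984), Usp22 (0.984) and Eif2ak3 (0.977), and Rac2 with Rbck1 (0.992), Znrd2 (0.992) and Akt1 (0.991). No oxidase gene was among the 3 nearest of another. All points share the same arrays and treatments, and in the 7 arrays other than the narrow ones each of these values was 0.914 or more. None of these 15 genes passed in any comparison.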

How the data were processed

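The authors deposited 1 value per probe set and array, an RMA intensity on a linear scale. RMA and Affymetrix Power Tools are listed in the submitters' processing notes. Versions, and which arrays were normalized together, are not given in the sources used here. Deposited intensities were converted to log2 without a filter or pseudocount. Of 24922 probe sets, 21425 carried 1 gene symbol in the platform annotation, 1399 several and 2098 none. The brightest probe set per symbol was kept (19752 genes, 19677 of them named through RefSeq).

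All 9 arrays were fitted with limma 3.58.1 in R 4.3.3, with 3 group means, moderated variances and two-sided p-values adjusted by Benjamini-Hochberg over all genes. The spread is shared by all groups, IFNg with its 2 arrays included. The model was tested on simulated data with independent noise of equal size in all arrays and changes of 2-fold. That test does not cover arrays of narrow range or smaller changes. Python 3.11.15 made the summaries. The number of arrays limits the precision.

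The members, lists, motifs and alternatives were chosen with earlier results of these data known. Genes named beside the members were Rac1, called list genes (at most 4 per list and comparison), the 2 smallest p-values of lists with no call, and the 3 most similar genes per member among genes above the median level. A comparison of the proteins encoded by Rac2 and Rac1 was planned and not made, for want of their sequences here. Alternatives covered variances, dim genes, normalization, a pseudocount, samples in the fit, weights, blocks, probe sets, thresholds and arrays left out.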

Additional observations from a re-analysis of the deposited data

Results flagged for a closer look

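None of the 5 oxidase genes had an outlying IFNa array or a difference between the responses to IFNa and IFNg that passed the test. Among the other genes named, IFNa replicate 4 lay apart from the other 3 IFNa arrays for Duoxa1 (156.5) and for Duox2 (65.4), both dim, and this array had the narrowest intensity range. Chance gives such a gap in about 1 of 20 groups and 36 genes were examined, so about as many would arise by chance. Only the IFNa group was large enough to be examined. The response to IFNa minus the response to IFNg, tested as the direct difference with limma, was log2 4.53 for Ifit1, -4.07 for Cxcl9, -2.99 for Acod1, -2.08 for Irf8 and -1.64 for Ciita. Adjusted p ran from 1.11e-05 to 7.81e-04. Each of these genes was among those named for passing this same comparison, so the flag repeats that selection.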

How the results depend on the processing

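Under 26 alternatives the number of oxidase genes called was 0 in each comparison, except for IFNa against untreated, where it was 1 (Ncf4) after quantile normalization, 1 (Ncf4) with the interquartile range as a covariate and 2 (Ncf4 and Rac2) with array weights. The array weights gave untreated replicate 2 a weight of 140.6 and the other untreated arrays 0.124 and 0.155, and their estimation did not converge. Of 345 intervals under the alternatives that refit the model, 1 reached past 2-fold, that of Rac2 for IFNa against IFNg without IFNg replicate 1 (-1.02). Settings that only moved the threshold repeat the reported values, so those values could not turn in sign. The same holds for fits that changed only the variances, the genes or probe sets fitted, or the arrays outside the comparison. The number of values that turned is therefore no measure of how stable the signs are. Stricter thresholds could also not raise a count of 0. Of 390 values, those repeats included, 21 turned in sign, all with an adjusted p of 0.286 or more. For IFNa against untreated these were Cyba under median centring (3e-04) and Ncf1 with array weights (0.0773). For IFNg against untreated they were Ncf1 after quantile normalization (-0.16) and with the range covariate (-0.0904), Ncf4 under median centring (0.0183), and Rac2 with array weights (-0.10) and without both narrow arrays (-0.0365). With 1 array left out, Cyba ranged from -0.146 to 0.091 for IFNa against untreated, -0.165 to 0.0723 for IFNg against untreated and -0.0547 to 0.0741 for IFNa against IFNg. For IFNg against untreated, Ncf1 ranged from -0.0073 to 0.143, Ncf4 from -0.170 to 0.0885 and Rac2 from -0.0365 to 0.273. With no change of sign, Cybb ranged from 0.0015 to 0.04 for IFNa against untreated and -0.18 to -0.08 for IFNg against untreated, and for IFNa against IFNg Ncf1 ranged from -0.32 to -0.12 and Ncf4 from -0.36 to -0.18. The cause was not tested. Deviations of same-numbered arrays correlated at -0.21 to 0.60 by title and -0.44 to 0.11 by description, not all above 0.1. The numbers were not taken to pair arrays, but the check cannot show whether arrays were paired. The narrow arrays IFNa replicate 4 and untreated replicate 1, numbered differently, correlated at 0.61. Deviations of the 2 IFNg arrays from their mean mirror each other. With a replicate block by title, Ncf4 turned to 0.0166 for IFNg against untreated. With a replicate block by description, Cyba turned to 0.0583 for IFNa against untreated, Ncf1 to -0.0261 for IFNg against untreated, and Ncf1 (0.005) and Ncf4 (3e-04) for IFNa against IFNg. Over all genes, quantile normalization gave 500 higher and 421 lower for IFNa against untreated, where the values as deposited gave 354 and 169.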
